A study of Mus musculus with 2 samples.

Results

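Chemokines and their receptors were examined in the lung of the newborn mouse. The 60 members were the protein-coding genes in both gene tables whose mouse symbol belongs to the Ccl, Cxcl, Cx3cl1 and Xcl1 ligand series or the Ccr, Ccrl2, Cxcr, Ackr, Cx3cr1 and Xcr1 receptor series, out of 21474 protein-coding and 43346 mouse genes in all. They comprised 37 ligands and 23 receptors. The rule itself uses names and no measured value. Cxcl11 stood outside the rule because the annotation lists it as a polymorphic pseudogene, and it had 0 counts in both libraries. The platelet chemokines Pf4 and Ppbp stood outside it because their symbols do not follow the series.

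The study sequenced total RNA of lung from 2 B6NCrl pups at postnatal day 0, with both lungs of 1 pup in each library. Pup 1 is replicate 1 and pup 3 is replicate 2. The labels name no treatment or mutation. Both pups carry pregnancy number 1 and the same donor identifier, and their sex was not collected. There was 1 group, so no contrast between conditions existed, and any difference between pup 1 and pup 3 was 1 library set against 1 library.

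Chemokines are small proteins, mostly secreted, that draw leukocytes along gradients by binding G protein-coupled receptors on the cell surface. Homeostatic chemokines place cells in tissues and lymphoid organs without injury, and inflammatory chemokines are switched on in epithelium, endothelium and macrophages by microbial products and cytokines. Atypical receptors bind chemokines without coupling to G proteins and mostly take them up from the surroundings. Lung epithelium and lung macrophages are known sources of several members.

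The subfamilies are named for the spacing of the first cysteines of the mature protein, and the coding stretch around them is shown for 7 ligands that stand for each subfamily and for the results that follow. The sequences are from GENCODE M21 transcripts, 5′ to 3′ on the coding strand, with the cysteine codons in capitals.
Cxcl15: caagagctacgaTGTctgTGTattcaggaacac
Cxcl1: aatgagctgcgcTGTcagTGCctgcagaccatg
Cxcl12: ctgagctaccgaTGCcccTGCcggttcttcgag
Ccl21a: gggggtcaggacTGCTGCcttaagtacagc
Ccl20: agcaactacgacTGTTGCctctcgtacata
Cx3cl1: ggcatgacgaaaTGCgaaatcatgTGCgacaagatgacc
Xcl1: gaagagagtagcTGTgtgaacttacaa
The CXC ligands Cxcl15, Cxcl1 and Cxcl12 have a single codon between the cysteine codons, the CC ligands Ccl21a and Ccl20 have none, Cx3cl1 has a longer gap, and Xcl1 lacks the neighbouring cysteine. Codons for glutamate, leucine and arginine, the ELR motif of neutrophil-drawing CXC chemokines, stood just before the first cysteine in Cxcl15, Cxcl1, Cxcl2, Cxcl3 and Cxcl5. Cxcl12 lacked them.

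The libraries held 42189536 estimated counts over genes in pup 1 and 37026165 in pup 3, and the members held 0.169% and 0.183% of them. A count of 3, the most that a reading of 0 allows, corresponded to 0.0711 and 0.0810 CPM (counts scaled by library total). As a check of the lung label, the 9 alveolar type 2 markers were all detected and summed to 86115 and 77341 TPM (a level per transcript length, scaled by library), with Sftpc the highest. Club cell markers summed to 32700 and 34304 TPM.

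Of the 60 members, 31 reached a level of 1 TPM in both pups (51.7%), beside 12942 of 21474 protein-coding genes (60.3%). A further 5 reached it in pup 3 alone, and 24 stayed under it in both. Detection covered 22 of 37 ligands (59.5%) and 9 of 23 receptors (39.1%). Ccl1, Ccl26 and Ccl27b had 0 counts in both libraries. Summed ligand levels were 1243 TPM in pup 1 and 1489 TPM in pup 3, and summed receptor levels were 136 and 123 TPM. The ratio of ligand to receptor TPM was 9.17 in pup 1 and 12.1 in pup 3, a mean of 10.6 ± 2.06 (SD, n = 2). In bulk tissue, fewer cells of a type and less RNA per cell cannot be told apart.

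**Figure D1:**
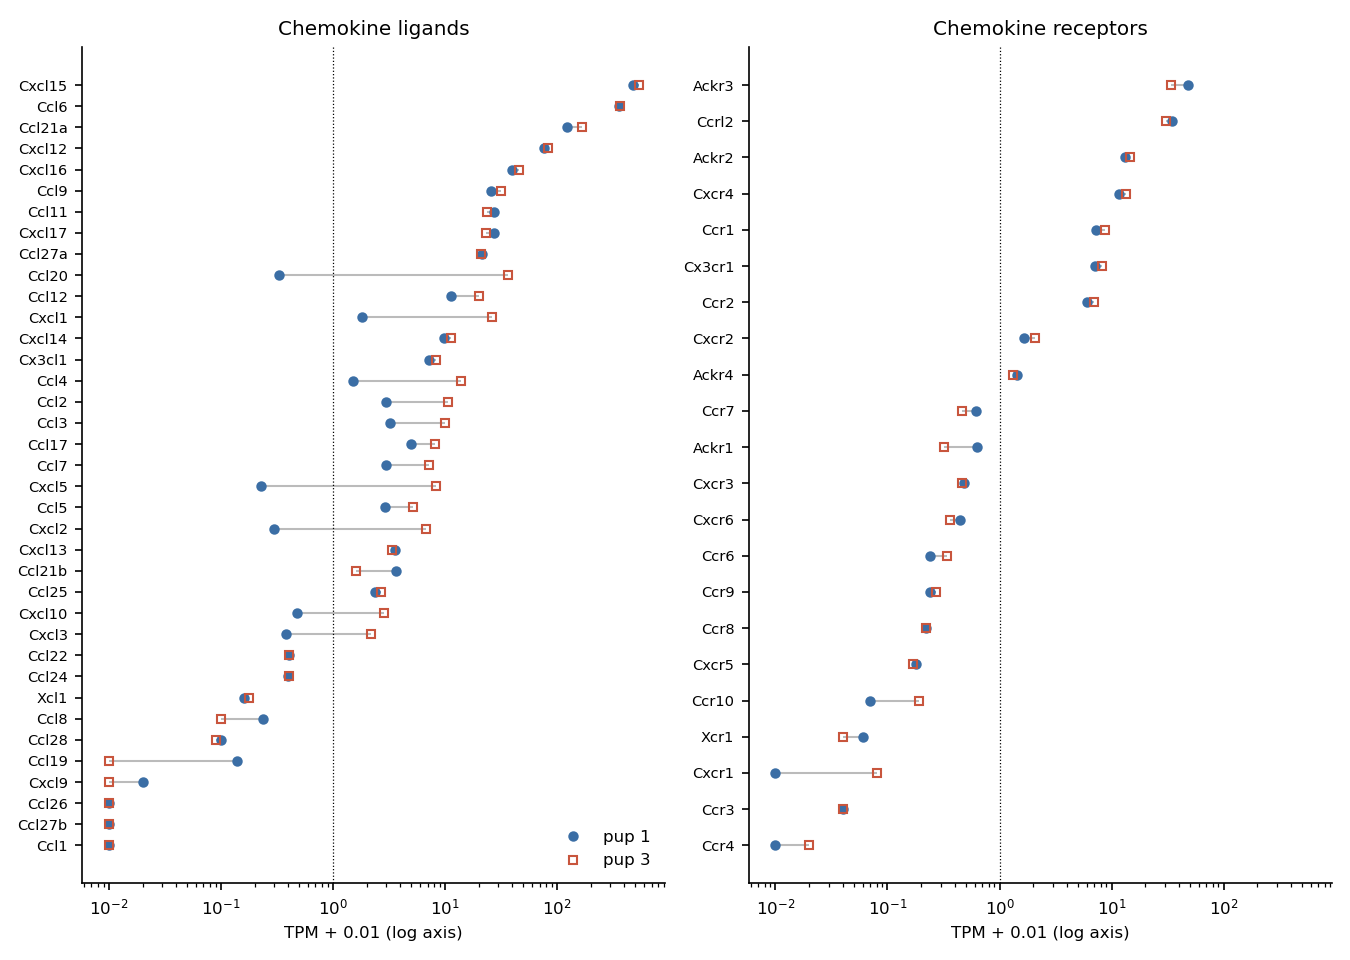
Level of the 37 ligands (left) and of receptors (right) in pup 1 (filled circles) and pup 3 (open squares), as TPM + 0.01 on a log axis; the dotted line marks 1 TPM. Cxcl15 lies at the top of the ligands near 500 TPM in both pups, Ackr3 at the top of the receptors, and the long grey joins belong to ligands that were higher in pup 3, such as Ccl20 at 0.32 and 36.52 TPM.

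Few genes carried most of the ligand signal. Cxcl15 (chr5:90794534-90803067, mm10), a neutrophil-drawing CXC chemokine of mouse lung epithelium once named lungkine, stood at 481 TPM in pup 1 and 538 TPM in pup 3, a mean of 510 ± 40.8 (SD, n = 2) and rank 212 among protein-coding genes. It held 38.7% and 36.2% of all ligand TPM. With Ccl6, Ccl21a and Cxcl12 the share was 83.6% and 77.7%. The other epithelial CXC members were far lower. Cxcl17, a mucosal chemokine, measured 27.7 and 23.1 TPM, and Cxcl14, a CXC chemokine of epithelium and stroma, measured 9.78 and 11.3 TPM. By scaled counts Cxcl17 was slightly lower in pup 3. Cxcl15 and Cxcl14 had no fixed direction, with log2 ratios of 0.08 and 0.13 that turned to -0.06 and -0.01 with spike-in scaling. The spike-ins held only 317 and 316 counts, so that scaling is itself imprecise.

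The homeostatic ligands were led by Ccl21a and Cxcl12. Ccl21a (chr4:42772860-42773993), which draws Ccr7-bearing dendritic and T cells, measured 122 and 166 TPM. Cxcl12 (chr6:117168535-117181367), which retains progenitors and leukocytes through Cxcr4, measured 76.9 and 83.1 TPM. Ccl27a, known as a skin-homing chemokine, measured 21.6 and 20.8 TPM. Of the 9 homeostatic ligands, 6 were detected in both pups, and Cxcl13, the B cell attractant, and Ccl25, the gut and thymus chemokine, came in at 3.55 and 3.39 TPM and at 2.37 and 2.70 TPM. Ccl19, the other Ccr7 ligand, was at 0.13 and 0 TPM, and Ccl28, a mucosal chemokine, at 0.09 and 0.08 TPM. Lymphatic endothelium markers summed to 422 and 332 TPM with all 6 detected, and Lyve1, the highest, alone measured 300 and 188 TPM. Of the 6 tested, 3 had log2 ratios above 0 and 3 below. Arterial endothelium markers summed to 268 and 282 TPM with all 7 detected and Sox17 highest. The lymphatic sum mostly follows Lyve1, so the sums do not compare the vessel types.

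Ccl21a is uncertain because the mouse genome holds near copies. Of the 840 overlapping 31-base words of its transcript, 677 (80.6%) also occur in Gm21541, 668 (79.5%) in Gm13304, and 310 in each of Ccl21b and Gm10591. The coding sequences of Ccl21a and Ccl21b, 399 bases each, differ at 2 bases. Reads shared by such genes were split by the authors' estimate, so Gm21541 received 2118 and 1807 counts, and Gm13304 34.0 in pup 1 against 225 in pup 3. Ccl21a with these 4 copies came to 5253 and 5576 counts, or 216 and 266 TPM, a ratio of 1.18 after scaling (95% counting interval 1.13 to 1.22). Ccl21a alone gave 1.29 (1.23 to 1.35). Both ratios put pup 3 slightly above pup 1. Ccl27a shares 75.9% of its words with Gm20878 and 62.5% or more with 3 further genes, and Ccl19 shares 73.6% with Gm2564.

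All 5 MIP-1-type CC ligands were detected, and they differed widely in level. Ccl6 (chr11:83587882-83593087), a macrophage and eosinophil product in mice that signals through Ccr1, was the second ligand at 360 and 369 TPM (rank 341 among protein-coding genes). Its neighbour Ccl9, another Ccr1 ligand, measured 25.9 and 31.8 TPM. Ccl3, Ccl4 and Ccl5, made by activated macrophages and T cells, were each at 14.0 TPM or below. Monocyte and macrophage markers summed to 3467 TPM in pup 1 and 2877 TPM in pup 3, with all 12 detected. Lyz2, the highest, alone measured 3232 and 2664 TPM, and C1qb, the next, 48.4 and 41.2 TPM. The sum therefore describes Lyz2 and says little of the other markers.

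Among eotaxins and Ccr4 ligands, 2 of 5 were detected. Ccl11, the eosinophil attractant eotaxin, measured 27.6 and 23.5 TPM, while its relative Ccl24 stayed at 0.39 and 0.40 TPM. Ccl17, which draws Ccr4-bearing T cells, measured 5.02 and 8.09 TPM, while Ccl22, the other Ccr4 ligand, stayed at 0.40 in both pups. Eosinophil markers were detected in 0 of 5 cases and summed to 1.70 and 2.34 TPM, with Ear6 highest. The membrane-bound ligands were both present. Cxcl16, a scavenger receptor and chemokine in the same protein, measured 39.6 and 46.1 TPM. Cx3cl1, or fractalkine, measured 7.15 and 8.31 TPM. Xcl1, the C chemokine of T and NK cells, was at 0.15 and 0.17 TPM. The 11 T and NK cell markers summed to 9.78 and 13.1 TPM, of which Gzma, the highest, measured 4.46 and 7.11 TPM. Counts were too few to test 7 of the 11, so the sum says little of the other markers.

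The receptor signal came mostly from atypical receptors and their relatives, with 4 of 5 detected and summed levels of 98.4 and 80.5 TPM. The 18 signalling receptors summed to 37.1 and 42.7 TPM, with 5 detected. Ackr3 (chr1:90203980-90216751), which scavenges Cxcl12, measured 48.2 TPM in pup 1 and 33.9 TPM in pup 3, the highest receptor in both. Ccrl2, which binds chemerin and is grouped here with the atypical receptors, measured 35.0 and 30.3 TPM. Ackr2, which degrades inflammatory CC chemokines, measured 13.2 and 14.6 TPM. Ackr4, a scavenger of Ccl19, Ccl21 and Ccl25, stood near the limit at 1.42 and 1.31 TPM, and Ackr1, the venular and red cell receptor, was under it at 0.62 and 0.31 TPM.

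The 5 detected signalling receptors ran from Cxcr4 down to Cxcr2. Cxcr4 (chr1:128588199-128592293), the Cxcl12 receptor, measured 11.7 and 13.3 TPM. Ccr1, of monocytes and neutrophils, measured 7.26 and 8.75 TPM, and Cx3cr1, the fractalkine receptor of monocytes and macrophages, 7.04 and 8.25 TPM. Ccr1 was slightly above Cx3cr1 within each pup, but with so few pups these neighbours cannot be ordered firmly. Ccr2, which brings monocytes from bone marrow, measured 5.97 and 6.91 TPM, below both. Cxcr2, the neutrophil receptor for ELR chemokines, measured 1.64 and 2.07 TPM. Another 12 signalling receptors, those of lymphocytes, eosinophils and dendritic cells among them, were at 0.61 TPM or below in both pups.

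Set side by side, 11 of 35 known ligand and receptor pairs had both partners at 1 TPM in both pups, 10 had only the ligand, 3 only the receptor and 11 neither. The pairs with both partners centred on Cxcl12 with Cxcr4 and Ackr3, Cx3cl1 with Cx3cr1, Cxcl1 with Cxcr2, the monocyte ligands Ccl2, Ccl7 and Ccl12 with Ccr2, and Ccl3, Ccl5, Ccl6 and Ccl9 with Ccr1. Lymphocyte and eosinophil receptors accounted for most pairs with the ligand alone. Ccl21a faced Ccr7 at 0.61 and 0.45 TPM, and Cxcl16 faced Cxcr6 at 0.43 and 0.35 TPM. Ccl11 faced Ccr3 at 0.03 TPM in both pups, and Ccl17 faced Ccr4 at 0 and 0.01 TPM. Ccl27a faced Ccr10 at 0.06 and 0.18 TPM, Ccl25 faced Ccr9 at 0.23 and 0.26 TPM, and Cxcl13 faced Cxcr5 at 0.17 and 0.16 TPM. The pairs with the receptor alone were Cxcr2 with Cxcl2, Cxcl3 and Cxcl5, each of which passed 1 TPM in pup 3 only. Cxcr6 lies within the span of Fyco1 (1357 and 1561 counts) and Ackr4 within that of Acad11 (837 and 864 counts), both on the opposite strand, so their low levels are uncertain. A pair says only that both RNAs were in the tissue. B cell markers summed to 22.2 and 24.8 TPM with 3 of 6 detected and Cd79b highest, and dendritic cell markers to 34.1 and 48.5 TPM with 5 of 8 detected and Cd83 highest. Cd83 alone measured 17.2 and 28.0 TPM, so the difference in the dendritic sum mostly follows it. Of the 6 dendritic genes tested, 3 had log2 ratios above 0 and 3 below.

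Transcript shares, estimated by the authors' model, were read for the 9 members above 10 TPM with more than 1 transcript model. The leading transcript was the same in pup 1 and pup 3 for 7 of these. Cxcl12 was spread over 3 coding transcripts that share their first 267 coding bases and differ at the end, known as the alpha, beta and gamma forms. Their last coding bases are shown because the forms differ only there. The sequences are from GENCODE M21, 5′ to 3′ without the stop codon, with the part absent from the alpha form in capitals.
Cxcl12-202: tacctggagaaagctttaaacaag
Cxcl12-203: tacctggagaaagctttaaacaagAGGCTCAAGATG
Cxcl12-201: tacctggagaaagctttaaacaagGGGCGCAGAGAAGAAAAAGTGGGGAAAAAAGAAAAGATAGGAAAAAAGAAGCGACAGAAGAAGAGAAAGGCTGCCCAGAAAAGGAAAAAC
The alpha form Cxcl12-202 held 64.1% of the gene's abundance in pup 1 and 61.5% in pup 3. The beta form Cxcl12-203 held 19.1% and 20.6%, and the gamma form Cxcl12-201, whose added end is rich in lysine and arginine codons, held 13.9% and 15.3%. The order was the same in both pups. In Ccl6 a coding and a retained-intron transcript were near equal, with the coding Ccl6-201 at 53.2% and 47.2%, so that the leading transcript changed between the pups. Ccl9 was led by a processed transcript without a coding frame at 59.7% and 53.8%, and Cxcl16 gave 43.1% and 40.6% to a transcript marked for nonsense-mediated decay. Ackr3, Cxcr4 and Ccl12 were each carried almost wholly by a single transcript, at 97.9% and 98.6%, 96.1% and 96.1%, and 93.2% and 97.7%. Ccl27a was spread over 20 models, with Ccl27a-202 leading at 36.1% and 29.2%. For Ccl20 shares are of use in pup 3 alone, where Ccl20-202 held 69.8% and Ccl20-203 27.5%, since pup 1 had 7 counts.

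A set of ligands was higher in pup 3, and no receptor passed the same rule. A gene was called different when its counts, scaled by TMM, differed at least 2-fold with a prior count of 0.5, the libraries together held 50 or more of its counts, and the 95% interval of the ratio left out 1. The interval covers counting error only and the rule carries no p. Of the 60 members, 39 had enough counts, and 10 of these (25.6%) were higher in pup 3, while 0 were higher in pup 1. Over all 15790 genes tested, 0.741% were higher in pup 3 and 0.659% were higher in pup 1, together 1.40%. All 10 were ligands, out of 27 tested, and 0 of 12 receptors tested passed, a share near that of all genes. The median log2 ratio of pup 3 over pup 1 was 0.13 over the tested members and -0.01 over all genes tested. Some members reached the count minimum through pup 3 alone. Without any minimum, 57 members entered and the same 10 were called higher in pup 3, beside 380 of 24690 genes. Dropping the minimum could add calls but could not remove any of the 10.

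**Figure D2:**
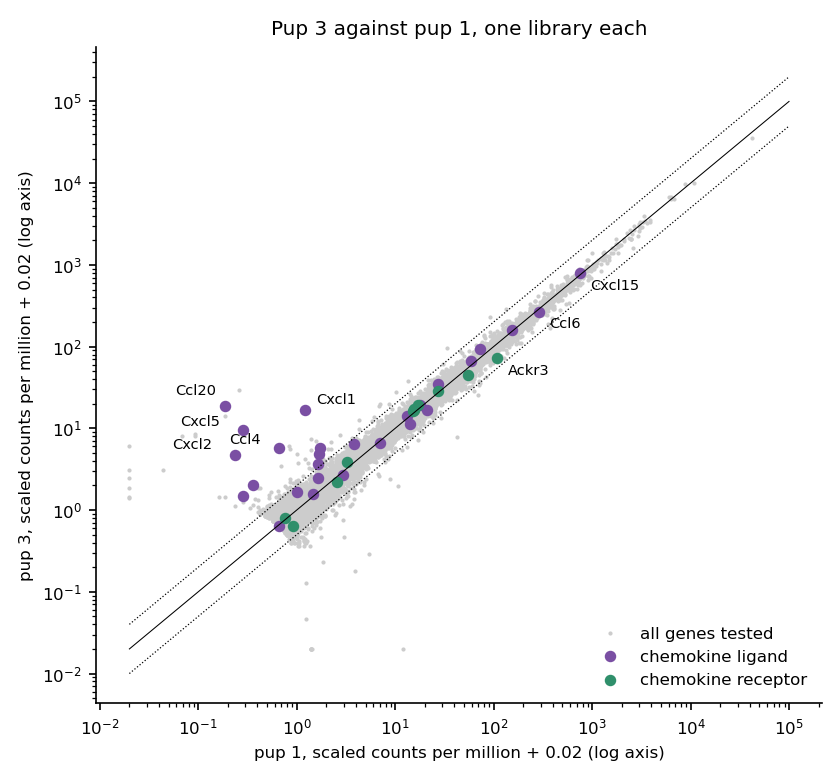
Scaled CPM + 0.02 in pup 1 (x) and pup 3 (y), both on log axes, for the 15790 genes tested (grey) with tested ligands in purple and receptors in green; the solid line marks equality and the dotted lines 2-fold. Ligands with few counts in pup 1 lie far above the line, while Cxcl15, Ccl6 and the receptors drawn lie between the dotted lines.

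The 10 called ligands summed to 14.2 TPM in pup 1 and 125 TPM in pup 3, or 1.14% and 8.39% of ligand TPM. The other 27 ligands summed to 1229 and 1364 TPM. In pup 1, 5 of the 10 were below 1 TPM, and in pup 3, 0 were.

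All 4 Cxcr2 ligands among the members, which draw neutrophils, were higher in pup 3. Ppbp, a Cxcr2 ligand of platelets outside the naming rule, had 436 and 437 counts and a ratio of 1.11 (0.970 to 1.27). Cxcl1 reached 50 counts in pup 1 against 622 in pup 3 (1.81 and 26.5 TPM), a 13.8-fold difference (95% interval 10.3 to 18.8). Cxcl5 had 11 and 354 counts (0.22 and 8.29 TPM), or 35.7-fold (19.7 to 72.1). Cxcl2 had 9 and 177 counts (0.29 and 6.75 TPM), or 21.8-fold (11.2 to 48.4). These genes ranked 14 to 16 toward pup 3 among the 15790 genes. Cxcl3 had 11 and 54.9 counts (0.37 and 2.20 TPM), or 5.54-fold (2.87 to 11.7), and it shares a stretch with Cxcl2 that covers 8.11% of its 31-base words. Cxcl15, which carries the same ELR motif and lies in the same gene cluster, gave 1.06 (1.04 to 1.07), with the direction turned by spike-in scaling. Their receptor Cxcr2 gave 1.18 (0.928 to 1.51). Neutrophil markers summed to 661 TPM in pup 1 and 672 TPM in pup 3, with 9 of 10 detected and S100a8 highest. S100a8 alone measured 381 and 379 TPM and S100a9 182 and 190 TPM, so the sum says little of the other markers. Of the 9 tested, 5 had log2 ratios above 0 and 4 below, and 0 passed the rule. That share is near the 1.40% of all genes called and no result about neutrophil genes.

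Ccl20 differed most among the members. Ccl20 (chr1:83116766-83119167), the epithelial attractant of Ccr6-bearing dendritic cells and lymphocytes, gave 7 counts in pup 1 but 708 in pup 3 (0.32 and 36.5 TPM). The ratio was 112 (54.1 to 280), rank 9 toward pup 3 of all genes tested. Ccr6, its receptor, stayed at 0.23 and 0.33 TPM. Cxcl10 (chr5:92346638-92348889), the interferon-induced Cxcr3 ligand, had 14 and 76 counts (0.47 and 2.86 TPM), or 6.02-fold (3.37 to 11.5). Cxcl10 lies wholly within the span of Art3 on the opposite strand, which had 926 and 668 counts. Cxcl9, the other Cxcr3 ligand among the members, was at 0.01 and 0 TPM, and Cxcr3 at 0.47 and 0.45 TPM.

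Among CC ligands, 2 MIP-1-type and 2 monocyte ligands were called. Ccl4 had 27 and 215 counts (1.49 and 14.0 TPM), or 8.82-fold (5.90 to 13.7). Ccl3 had 69 and 182 counts (3.21 and 9.94 TPM), or 2.92-fold (2.20 to 3.91). Ccl2, the main Ccr2 ligand, had 71 and 218 counts (3.0 and 10.7 TPM), or 3.40-fold (2.59 to 4.51). Ccl7, another Ccr2 ligand, had 68 and 138 counts (3.0 and 7.16 TPM), or 2.25-fold (1.67 to 3.05), the smallest of the 10. Just short of the rule lay Ccl12, a mouse Ccr2 ligand at 11.4 and 20.4 TPM and 1.70-fold (1.39 to 2.09). Ccl8, grouped here with the monocyte ligands but paired with Ccr8, was at 0.23 and 0.09 TPM. Ccl5 at 2.93 and 5.21 TPM gave 1.68-fold (1.11 to 2.55), and Ccl17 gave 1.52-fold (1.10 to 2.12). These were the only members added when the fold was set to 1.5.

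**Figure D3:**
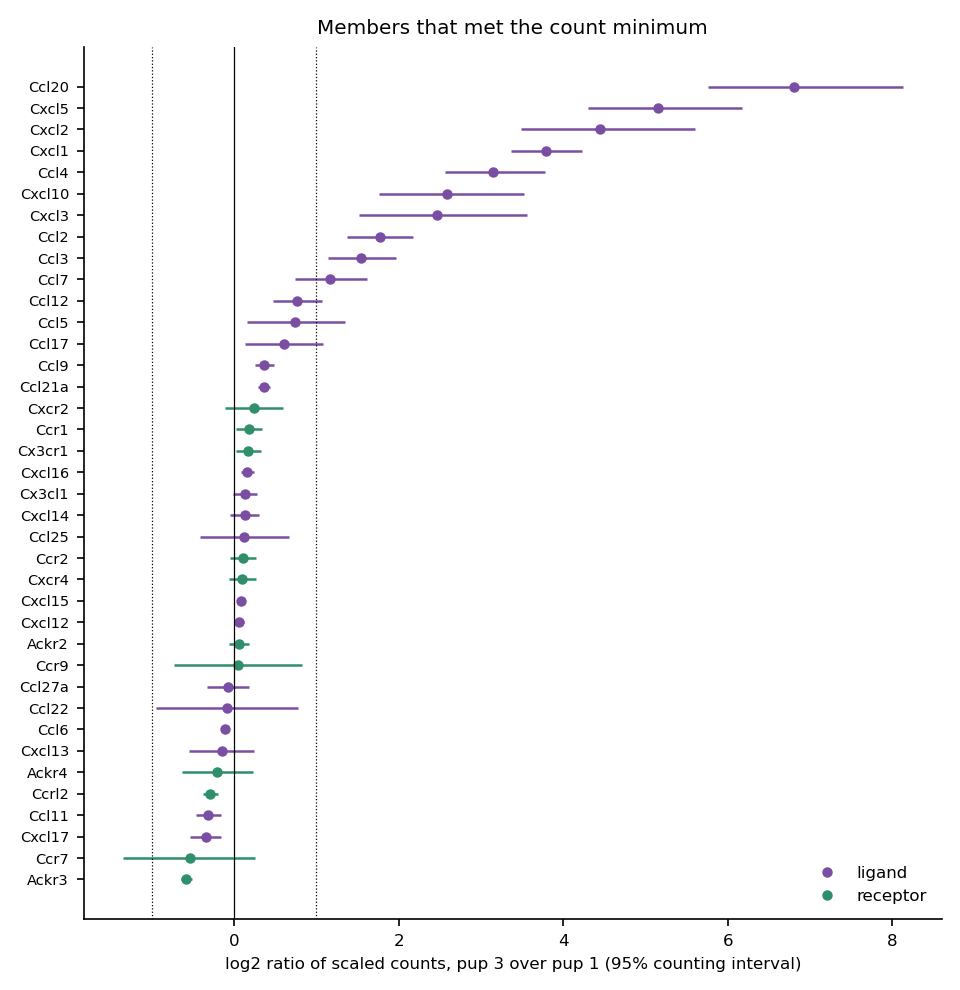
Log2 ratio of scaled counts, pup 3 over pup 1, for members that met the count minimum, with 95% counting intervals; ligands are purple, receptors green, and the dotted lines mark 2-fold. The 10 called ligands lie to the right of the right-hand dotted line, from Ccl7 at 2.25-fold to Ccl20 at 112-fold, and no member lies beyond the left-hand line.

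The 29 tested members that did not pass lay between -0.58 (Ackr3) and 0.76 (Ccl12) on the log2 scale. Ackr3 was lower in pup 3, with 4524 counts in pup 1 and 2729 in pup 3, a ratio of 0.668 (0.637 to 0.701). The most abundant ligands moved little. Ccl6 gave 0.928 and Cxcl12 gave 1.05, and both log2 ratios changed sign under another scaling. The other 21 members had too few counts to be read.

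Other genes were higher in pup 3 as well. Of 16 early inflammatory response genes, 14 had enough counts, 5 were higher in pup 3 (35.7%, beside 0.741% of all genes) and 0 in pup 1, with a median log2 ratio of 0.74. Il6, an acute-phase cytokine, had 7 and 53 counts, and Il1a, an epithelial alarm cytokine, 34.7 and 207. Tnf, a macrophage cytokine, had 42 and 139 counts, Il1b 177 and 370, and Saa3, a serum amyloid A gene, 423 and 1040. Il6, Il1a and Tnf reached the count minimum only through their pup 3 counts. Of the 14 tested, 13 had log2 ratios above 0 and 1 below, Csf2 with 336 and 251 counts. The list summed to 623 and 1013 TPM, with Lcn2 highest. Lcn2 measured 196 and 314 TPM and Icam1 203 and 304 TPM, so the sum mostly follows these genes. Milk protein genes, known from the lactating mammary gland, were higher too. Of these 8, 7 had enough counts and all 7 were higher in pup 3, again beside 0.741% of all genes. Each of the 7 reached the count minimum through pup 3 alone, which largely fixed its call. The list was also chosen with earlier results of these data known, so its share is no test against that of all genes. Csn2, beta-casein, had 10 and 1102 counts, Wap 2 and 303, and Glycam1 0 and 225. The milk list summed to 1.16 and 128 TPM. The part of these genes' source in the chemokine difference was not tested.

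Cell marker lists were read beside the 1.40% of all genes called, a share at which lists this short would rarely hold a call, so their counts say little. None of the 12 monocyte and macrophage genes, 9 neutrophil genes, 6 dendritic genes, 5 B cell genes or 4 T and NK cell genes tested passed the rule, and the monocyte and macrophage median was -0.13. Of 6 mast cell and basophil genes tested, 1 passed, Mcpt4 with 42 and 13 counts, higher in pup 1. That list summed to 56.4 and 56.9 TPM with 5 of 8 detected and Kit highest at 22.6 and 29.0 TPM. The near-equal sums hide opposite directions, since 4 of the 6 had log2 ratios below 0 and 2, Kit among them, above 0. Platelet markers summed to 180 and 171 TPM with 5 of 7 detected and Pf4 highest. Mesothelium markers summed to 901 and 1054 TPM with Krt19 highest among 5 detected. Stratified epithelium markers, from skin or upper airway, summed to 28.4 and 20.2 TPM with 4 of 8 detected and Sbsn highest, and thymus markers to 17.7 and 22.4 TPM with 1 of 6 detected and Cd1d1 highest.

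**Figure D4:**
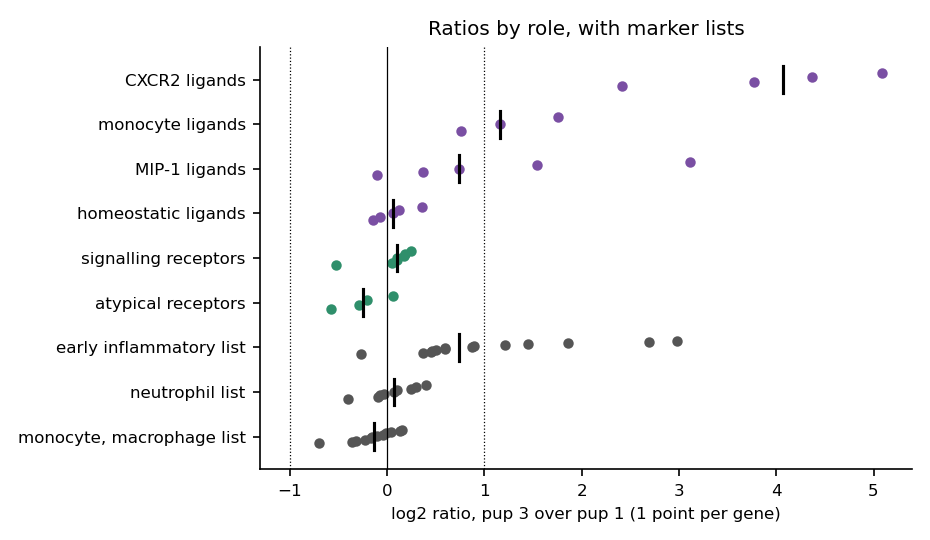
Log2 ratio of pup 3 over pup 1 for each tested gene (1 point per gene) of 4 ligand classes (purple), 2 receptor classes (green) and 3 lists of other genes (grey), with the median as a black bar and 2-fold as dotted lines. Cxcr2 ligands lie farthest right, from 2.42 to 5.09, early inflammatory genes spread from -0.27 to 2.98, and neutrophil and monocyte and macrophage markers gather around 0.

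Genes that act with the receptors were read from a separate list. Of 26 signalling, processing and related genes of the pathway, 24 were detected in both pups and 25 were tested. None passed the rule, a share near the 1.40% of all genes. The 5 highest were Gnb1 and Gnai2, the beta and inhibitory alpha subunits of the G proteins that receptors couple to, the cytokine Mif, the platelet chemokine Pf4 and Cd74, the invariant chain that also binds Mif. Their mean levels were 396, 366, 277, 136 and 93.1 TPM.

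Many members lie in tandem. With neighbours taken as starts within 500 kb of each other, 39 of the 60 lay in 10 clusters. Only members were placed in clusters, so genes outside the naming rule that lie in these spans are not listed. The CXC cluster at chr5:90759360-90905938 (mm10) holds the members Cxcl5, Cxcl3, Cxcl15, Cxcl1 and Cxcl2. Among these, Cxcl15 lies between Cxcl3 and Cxcl1 and was at 481 and 538 TPM, while the other 4 members were higher in pup 3. The monocyte cluster at chr11:82035571-82305690 holds Ccl2, Ccl7, Ccl11, Ccl12, Ccl8 and Ccl1. There Ccl2 and Ccl7 passed the rule, while the adjacent Ccl11 gave the opposite direction, at 27.6 and 23.5 TPM. The MIP-1 cluster at chr11:83525778-83664683 holds Ccl5, Ccl9, Ccl6, Ccl3 and Ccl4, of which Ccl3 and Ccl4 passed. The receptor cluster on chromosome 9 holds 7 receptors, of which Ccr1 and Ccr2 were detected.

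**Figure D5:**
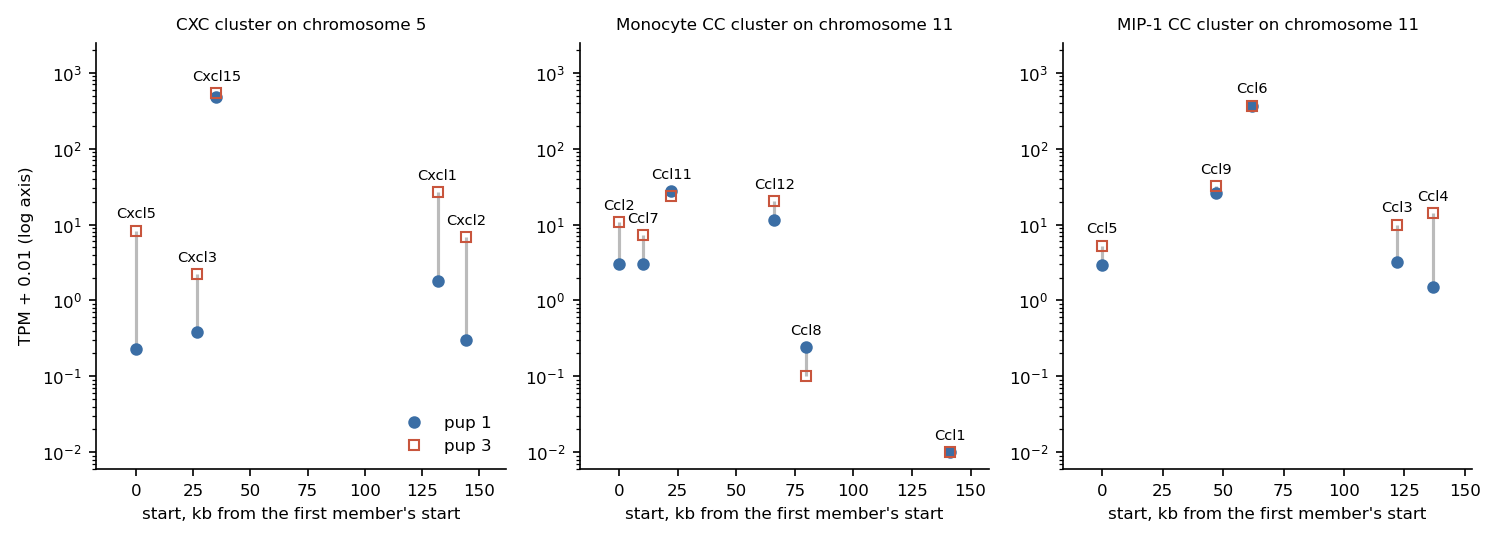
Level as TPM + 0.01 on a log axis against start position in kb from the first member for 3 ligand clusters, with pup 1 as filled circles and pup 3 as open squares. Only members are drawn. In the chromosome 5 cluster Cxcl15 is at 481 and 538 TPM, and the other 4 members are below 2 TPM in pup 1 and higher in pup 3.

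Promoters were read because several members in the same cluster were higher in the same pup. RefSeq promoters (GRCm38.p6) were in the table for 46 of the 60 members. Those of Ccl2, Ccl4, Ccl5, Ccl7, Ccl11, Ccl24, Ccl26, Ccr7, Ccr10, Cxcl5, Cxcl16, Cxcl17 and Cxcr5 were among those not analysed here. The 200 bases before each start were searched on both strands for the NF-kB consensus site and for TATAAA, the core of the TATA box. The NF-kB consensus occurs in 6.07% of the 32851 promoters in the table and TATAAA in 9.96%. These shares are per promoter, whereas a member with several promoters was counted if any of them held the site. The shares and the member counts are therefore not measured alike. Of the 6 members higher in pup 3 with a promoter in the table, 5 held the NF-kB consensus: Ccl20, Cxcl1, Cxcl2, Cxcl3 and Cxcl10. Ccl3 did not. Of the 40 other members, 7 held it, namely Ackr2, Ccl1, Ccl9, Ccr1, Ccr3, Ccr6 and Ccrl2. TATAAA stood in 1 of the 6 and in 13 of the 40. The 6 were called from these same data, and a different form of the NF-kB site had been searched first. The counts are therefore descriptive and no test. The 5 windows are shown with that of Cxcl15, the member of the chromosome 5 CXC cluster that differed little. They lie at chr1:83116566-83116765 (Ccl20), chr5:90891045-90891244 (Cxcl1), chr5:90903699-90903898 (Cxcl2), chr5:90785901-90786100 (Cxcl3), chr5:92348890-92349089 (Cxcl10, minus strand) and chr5:90794334-90794533 (Cxcl15), the others on the plus strand, and are read 5′ to 3′ along the gene. Capitals mark each match to either motif, on either strand, and overlapping matches run together.
Ccl20: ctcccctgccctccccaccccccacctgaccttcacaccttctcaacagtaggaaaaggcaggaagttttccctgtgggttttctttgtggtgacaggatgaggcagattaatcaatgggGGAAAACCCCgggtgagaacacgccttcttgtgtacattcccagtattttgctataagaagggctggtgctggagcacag
Cxcl1: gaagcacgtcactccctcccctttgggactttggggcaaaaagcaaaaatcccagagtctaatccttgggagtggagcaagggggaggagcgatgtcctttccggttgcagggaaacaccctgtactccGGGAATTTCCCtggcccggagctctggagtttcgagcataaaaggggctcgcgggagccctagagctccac
Cxcl2: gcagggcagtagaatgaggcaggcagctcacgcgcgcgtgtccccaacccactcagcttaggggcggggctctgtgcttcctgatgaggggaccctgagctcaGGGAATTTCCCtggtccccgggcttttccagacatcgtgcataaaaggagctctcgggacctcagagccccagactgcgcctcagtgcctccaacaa
Cxcl3: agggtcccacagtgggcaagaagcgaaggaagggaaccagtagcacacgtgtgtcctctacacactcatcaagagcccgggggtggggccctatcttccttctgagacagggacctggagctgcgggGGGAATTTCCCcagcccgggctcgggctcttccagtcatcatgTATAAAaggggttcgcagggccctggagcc
Cxcl10: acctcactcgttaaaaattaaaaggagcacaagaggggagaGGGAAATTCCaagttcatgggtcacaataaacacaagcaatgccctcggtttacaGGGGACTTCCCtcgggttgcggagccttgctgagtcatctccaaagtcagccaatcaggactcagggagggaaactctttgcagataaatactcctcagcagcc
Cxcl15: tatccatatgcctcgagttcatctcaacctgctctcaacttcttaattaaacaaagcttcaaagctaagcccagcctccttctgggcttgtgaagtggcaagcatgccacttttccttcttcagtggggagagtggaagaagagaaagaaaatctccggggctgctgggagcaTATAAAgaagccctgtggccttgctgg
Cxcl1, Cxcl2 and Cxcl3 hold the same 11 capital letters, in which the site reads on both strands. Ccl20 holds a single match that begins at position -80 from the start. Cxcl3 has a TATAAA at -30 and Cxcl15 at -27. In Cxcl15 that is the only match. A match describes the letters in these windows and says nothing of binding.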

How the data were processed

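Total RNA of lung from 2 pups was read from the deposited gene and transcript tables. The expected counts (estimated counts that need not be whole), TPM and FPKM are the authors' values, per the file headers, and the isoform percent is the deposited share of a gene's abundance per transcript. Posterior mean counts stand beside them. The deposited files name assembly mm10 and annotation M4. The aligner, counter and use of strand, not given in the sources used here, leave overlapping genes uncertain. Symbols, spans and transcripts are from GENCODE M21.

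Expected counts were rounded and scaled by edgeR 4.0.16 TMM (R 4.3.3); ratios have exact conditional binomial 95% intervals, computed with scipy 1.17.1. DESeq2 1.42.0 size factors were an alternative. Code was tested on simulated data. Values of 1 receptor and 1 pathway gene are counted in the totals and not reported here. Named genes were the markers Cxcl15, Cxcl12, Ccl21a and Ccl20, members of at least 5 TPM, members past the size rule, partners of detected pairs, and the highest gene of each list. Members, lists, roles and motifs were chosen with earlier results of these data known. Since both pups carry 1 donor identifier, spread between pups may be partly technical.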

Additional observations from a re-analysis of the deposited data

How the results depend on the processing

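The 10 ligands higher in pup 3 were called by all 9 alternatives (other scalings, count minimums, prior count, value column and fold). The lower count minimums and the 1.5-fold setting only loosen the rule, so they could not have lost a call. Of 270 ratios recomputed for 30 named members, 268 kept their side of the rule and 2 (Ccl12, Ccl17) passed at 1.5-fold. No called ratio changed sign. ERCC scaling rested on 317 and 316 spike-in counts, so small shifts under it are imprecise. Of the ratios that did not pass, 8 changed sign, all within 0.13 of 0 on the log2 scale before: Cxcl15 (-0.06), Cxcl12 (-0.08), Cxcl14 (-0.01), Cx3cl1 (-0.01), Ackr2 (-0.08), Cxcr4 (-0.04) and Ccr2 (-0.04) with ERCC scaling, and Ccl6 (0.04) by TPM + 1. Members higher in pup 1 went from 0 to 1 with at least 10 counts and to 1 with no minimum, in both cases Ccl21b, which shares reads with its copies. Over all genes, 221 differed, against 590 with at least 10 counts, 701 with no minimum, 83 by TPM + 1 and 799 at 1.5-fold. Of these 117 were higher in pup 3, against 319, 380, 53 and 439, and 104 were higher in pup 1, against 271, 321, 30 and 360, and 161 with ERCC spike-in scaling, which moved the median log2 ratio of all genes to -0.15. The ligand to receptor ratio fell from 10.6 to 6.67 without Cxcl15. With either pup left out the ratio ranged from 9.17 to 12.1 and detected members from 31 to 36. A different form of the NF-kB site, searched first, matched 4 of the 6 members higher in pup 3 and 2 of the 40 others. That form occurs in 1.18% of all promoters. No paired analysis was possible because there was 1 group. With 1 library per pup, the spread between animals behind each ratio is not known.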
